A study of Homo sapiens with 4 samples.

Results

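The genes described here are FOXA1, HOXB13, GATA2, GRHL2, NCOA1, NCOA2, NCOA3 and NCOR1, which encode pioneer factors, lineage factors and coregulators that work with the androgen receptor in prostate cells. They were taken by symbol from the deposited gene table, where all 8 were found among 22637 genes. The receptor gene itself was not among the genes chosen and is not reported here. RNA was sequenced from 4 human prostate adenocarcinoma cell lines with 1 library each. LNCaP is castration-sensitive. C4-2B, which is castration-resistant, descends from it, so the 4 libraries share 1 origin. LN-OlapR and 2B-OlapR were derived from LNCaP and C4-2B by a year of exposure to increasing olaparib, an inhibitor of the DNA repair enzyme PARP. The resistant lines were kept in olaparib, but GEO lists all 4 samples as untreated and the deposited design states that no selection agent was present when cells were plated for RNA. The plating time differs between the deposited design and the methods. LN-OlapR with LNCaP is called the LN pair and 2B-OlapR with C4-2B the 2B pair. With 1 library per line, a difference between lines cannot be told apart from a difference between cultures.

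The androgen receptor is a transcription factor that is held by chaperones until hormone binds it, and then occupies enhancers in the nucleus. Pioneer factors such as FOXA1 bind closed chromatin and open it, and GATA2 and HOXB13 share many enhancers with the receptor in prostate epithelium. At the enhancer, p160 coactivators (NCOA1, NCOA2 and NCOA3) bridge the receptor to histone acetyltransferases, whereas NCOR1 brings in the deacetylase HDAC3 and represses transcription.

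Libraries held from 19950537 to 26394267 estimated counts. Values are given as counts per 1000000 counts of the library (CPM) after TMM scaling, and 95% intervals reflect the error of counting alone. In RNA pooled from a whole culture, fewer expressing cells and less RNA per cell cannot be told apart. The labelled cell type was checked with marker genes. All 10 luminal prostate markers were listed, with a summed level from 3323 to 6616 normalized CPM. Of 5 basal markers only 1 was listed, with at most 0.557 normalized CPM, and neuroendocrine markers summed to at most 3.64. Fibroblast markers summed to 9.07 to 19.1, leukocyte markers to 0.670 to 5.36 and endothelial markers to 2.61 to 12.2. KLK3, the gene for prostate-specific antigen and a luminal marker, stood at 53.1 normalized CPM in LNCaP against 1870 to 2685 in the other libraries, and its part in the values of the LNCaP library was not tested.

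The 4 pioneer and lineage factors were abundant in every library. To compare levels between genes, normalized CPM were divided by the length of the exons in kilobases. On that scale HOXB13 ranked above 98.3% to 98.7% of the 21395 genes with a length, and FOXA1 above 97.2% to 98.2%. GATA2 ranked above 95.3% to 98.5% of them and GRHL2 above 90.9% to 94.1%. The coregulators were less abundant. NCOR1 ranked above 74.2% to 86.5% of genes, NCOA1 above 70.8% to 86.5%, NCOA2 above 57.8% to 74.8% and NCOA3 above 49.3% to 56.9%.

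**Figure D1:**
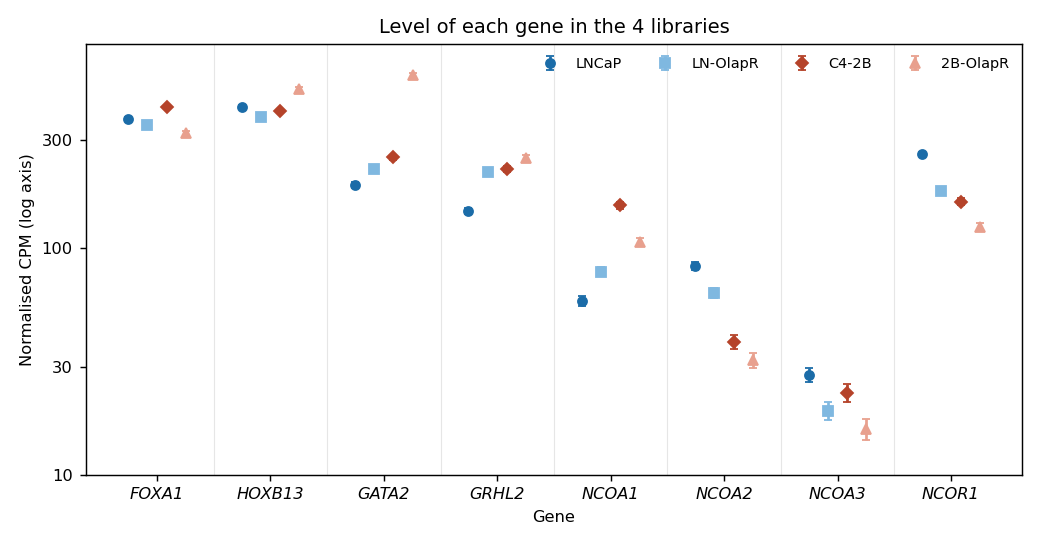
Normalized CPM (log axis) of the 8 genes in LNCaP, LN-OlapR, C4-2B and 2B-OlapR, 1 library each, with bars for the 95% Poisson interval of the count. GATA2 stands apart in 2B-OlapR at 582, NCOA1 is highest in C4-2B at 155, and NCOA2 is highest in LNCaP at 83.5.

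FOXA1, on the minus strand of chromosome 14 (chr14:37589984-37596059, GRCh38, GENCODE release 29), encodes the forkhead pioneer factor that opens receptor binding sites. It had 371 and 349 normalized CPM in LNCaP and LN-OlapR, and 420.2 and 323 in C4-2B and 2B-OlapR. Its level was the most even of the 8 genes, with the highest library 1.30-fold above the lowest. Against the parent the log2 ratio was -0.09 (95% interval -0.13 to -0.05) in the LN pair and -0.38 (-0.43 to -0.33) in the 2B pair. Both resistant libraries were thus below their parent.

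HOXB13, a homeodomain factor of the posterior body axis and the prostate, lies on the minus strand of chromosome 17 (chr17:48724763-48729178). It had 421 and 381 normalized CPM in LNCaP and LN-OlapR, and 406 and 507 in C4-2B and 2B-OlapR. The log2 ratio was -0.14 (-0.18 to -0.10) in the LN pair and 0.32 (0.28 to 0.36) in the 2B pair, so the pairs differed in direction. The LN ratio minus the 2B ratio was -0.46 (-0.52 to -0.41).

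GATA2, a zinc-finger factor that acts with FOXA1 at receptor-bound enhancers, lies on the minus strand of chromosome 3 (chr3:128479427-128493185). It had 191 and 225 normalized CPM in LNCaP and LN-OlapR, and 253 and 582 in C4-2B and 2B-OlapR, from 5122, 5254, 5171 and 12064 counts. Of the first 3 libraries the highest, C4-2B, was 1.33-fold above the lowest, LNCaP, and 2B-OlapR stood well above all of them. In the 2B pair the log2 ratio was 1.20 (1.16 to 1.25), or 2.30-fold, which ranked 504 of 15527 genes from the highest. In the LN pair it was 0.24 (0.19 to 0.30), and the difference between the pairs was -0.96 (-1.04 to -0.89). GATA2 was the single member past 2-fold in the 2B pair, where 10.1% of all genes passed that fold.

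GRHL2, a Grainyhead-like factor that maintains epithelial genes, lies on the plus strand of chromosome 8 (chr8:101492432-101669726). It had 146 and 219 normalized CPM in LNCaP and LN-OlapR, and 225 and 251 in C4-2B and 2B-OlapR. LNCaP was below the other libraries, and the levels in C4-2B and LN-OlapR did not differ beyond counting error, with a log2 ratio of 0.04 (-0.02 to 0.10). Resistant cells exceeded their parent by a log2 ratio of 0.58 (0.52 to 0.64) in the LN pair and 0.16 (0.10 to 0.22) in the 2B pair.

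The ratio of 2 genes within a library does not depend on scaling between libraries. FOXA1 exceeded GATA2 per kilobase by a log2 ratio of 1.13 (1.08 to 1.17) in LNCaP, 0.80 (0.75 to 0.85) in LN-OlapR and 0.90 (0.85 to 0.95) in C4-2B. In 2B-OlapR the order was the other way, at -0.69 (-0.73 to -0.64). Of the summed level of the 4 factors per kilobase, GATA2 made up 15.2% and 17.8% in LNCaP and LN-OlapR, and 17.9% and 32.7% in C4-2B and 2B-OlapR, whereas FOXA1 made up 33.1%, 30.9%, 33.4% and 20.3%. FOXA1 relative to HOXB13 was -0.38 and -0.33 in LNCaP and LN-OlapR, and -0.15 and -0.85 in C4-2B and 2B-OlapR. The sign of that ratio in the first 3 libraries turned when the longest transcript replaced the exon length, while its change between libraries does not depend on length. FOXA1 relative to GRHL2 was 1.95 and 1.28 in LNCaP and LN-OlapR, and 1.51 and 0.97 in C4-2B and 2B-OlapR.

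NCOA1, also called SRC-1, lies on the plus strand of chromosome 2 (chr2:24491914-24770702). It had 58.5 and 78.8 normalized CPM in LNCaP and LN-OlapR, and 155 and 107 in C4-2B and 2B-OlapR. Both libraries of the C4-2B background were above both of the LNCaP background, and the resistant lines lay between the parents. The log2 ratio was 0.43 (0.33 to 0.53) in the LN pair and -0.53 (-0.61 to -0.45) in the 2B pair, and the LN ratio minus the 2B ratio was 0.96 (0.84 to 1.08). C4-2B exceeded LNCaP by a log2 ratio of 1.40 (1.32 to 1.49), or 2.65-fold.

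NCOA2, also called SRC-2, lies on the minus strand of chromosome 8 (chr8:70109762-70403805). It had 83.5 and 63.3 normalized CPM in LNCaP and LN-OlapR, and 38.6 and 32.0 in C4-2B and 2B-OlapR, the reverse of NCOA1 with respect to background. C4-2B was 2.16-fold below LNCaP, a log2 ratio of -1.11 whose interval excluded 0. Resistant cells were below their parent by -0.40 (-0.49 to -0.31) in the LN pair and -0.27 (-0.42 to -0.12) in the 2B pair. The difference of -0.13 (-0.31 to 0.05) between the pairs was not detectable at this depth.

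NCOA3, also called SRC-3 or AIB1, lies on the plus strand of chromosome 20 (chr20:47501902-47656877). It was the lowest of the 8 genes per kilobase in every library, and had 27.6 and 19.2 normalized CPM in LNCaP and LN-OlapR, and 22.9 and 15.9 in C4-2B and 2B-OlapR, from 741, 447, 469 and 329 counts. Each resistant line was below both parental lines. The log2 ratio was -0.52 (-0.69 to -0.35) in the LN pair and -0.53 (-0.73 to -0.33) in the 2B pair, and the difference between the pairs was 0.01 (-0.26 to 0.27).

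NCOR1, the nuclear receptor corepressor, lies on the minus strand of chromosome 17 (chr17:16029157-16218185). It had 261 and 179.5 normalized CPM in LNCaP and LN-OlapR, and 161 and 124 in C4-2B and 2B-OlapR. Resistant cells were below their parent by -0.54 (-0.60 to -0.49) in the LN pair and -0.37 (-0.45 to -0.30) in the 2B pair. C4-2B was below LNCaP by -0.70 (-0.76 to -0.64), or 1.62-fold.

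The makeup of the p160 family differed between backgrounds. Per kilobase, NCOA2 made up 45.3% of the summed level of the 3 p160 genes in LNCaP and 35.6% in LN-OlapR, but 15.7% in C4-2B and 18.2% in 2B-OlapR. NCOA1 made up 36.9% and 51.5% in LNCaP and LN-OlapR, and 73.2% and 71.0% in C4-2B and 2B-OlapR. NCOA3 made up 17.8%, 12.9%, 11.1% and 10.8%. The log2 ratio of NCOA2 to NCOA1 was 0.30 (0.20 to 0.39) and -0.53 (-0.63 to -0.43) in LNCaP and LN-OlapR, and -2.22 (-2.33 to -2.11) and -1.96 (-2.08 to -1.83) in C4-2B and 2B-OlapR, so NCOA2 exceeded NCOA1 in LNCaP alone. The summed level was 18.4 and 17.7 in LNCaP and LN-OlapR, and 24.5 and 17.5 in C4-2B and 2B-OlapR. NCOA3 relative to NCOR1 was closer between libraries, at -2.37, -2.35, -1.94 and -2.09.

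**Figure D2:**
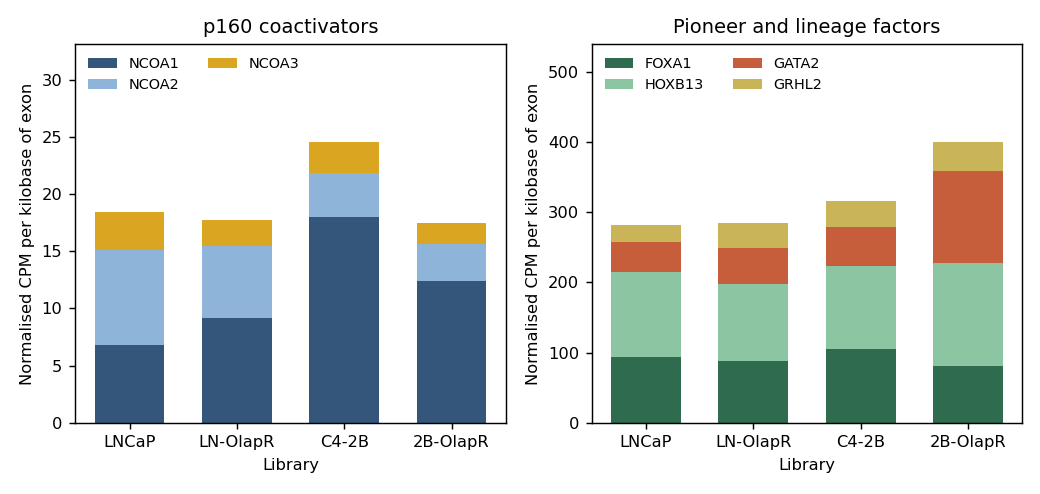
Stacked levels per library, in normalized CPM per kilobase of exon, of the 3 p160 coactivators (left) and the 4 pioneer and lineage factors (right), 1 library per bar and no error drawn. NCOA1 makes up 36.9% of the p160 bar in LNCaP and 73.2% in C4-2B, and GATA2 makes up 32.7% of the right-hand bar in 2B-OlapR.

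Resistant and parental lines were compared to find which members moved with olaparib resistance. In the LN pair 3 of the 8 members were higher in LN-OlapR and 5 lower, where 49.6% of all genes were higher. For all 8 the counting interval excluded 0, which was also so for 63.0% of the 15373 genes analyzed. None was past 2-fold (a count of 0), against 9.46% of all genes, and none was past 1.5-fold, against 21.4%. GRHL2 came closest, at 1.498-fold. The count past 1.5-fold depended on scaling: it was 1 (GRHL2) with DESeq2 or upper quartile factors, and 2 (NCOA3 and NCOR1) with total counts. In the 2B pair 3 members were higher and 5 lower, where 50.0% of all genes were higher, again with all 8 intervals excluding 0, against 62.3% of all genes, and 1 was past 1.5-fold, against 24.2%. The median of the members was -0.12 in the LN pair and -0.32 in the 2B pair, where the median of all genes was 0.00 in both. The median size of a log2 ratio over all genes, either direction, was 0.27 in the LN pair and 0.30 in the 2B pair. With 1 library per line these differences have no replicate check.

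The pairs share no library. Of the 8 members, 2 (GATA2 and GRHL2) were higher in both resistant lines and 4 (FOXA1, NCOA2, NCOA3 and NCOR1) were lower in both, while HOXB13 and NCOA1 went in opposite directions. Over the 14602 genes analyzed in both pairs, 28.5% were higher in both, 29.1% were lower in both and 57.6% went the same way. The counting interval of the difference between the pairs excluded 0 for 6 members, against 59.4% of all genes. In size, the differences of GATA2 and NCOA1 exceeded those of 86.1% and 86.0% of genes.

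**Figure D3:**
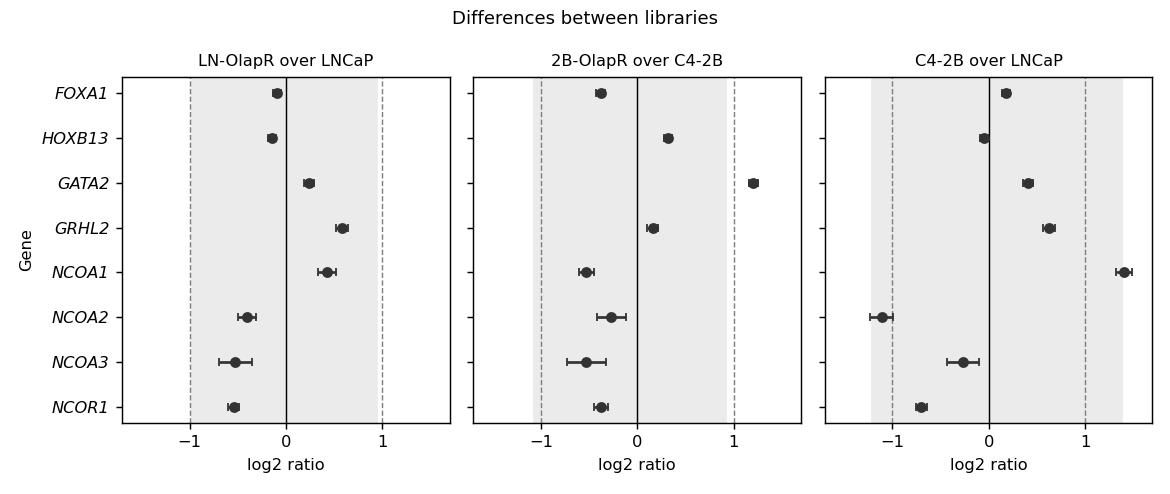
log2 ratios of the 8 genes in LN-OlapR over LNCaP, 2B-OlapR over C4-2B and C4-2B over LNCaP, with 95% counting intervals. Grey bands span the 5th to 95th percentile of all analyzed genes and dashed lines mark 2-fold. GATA2 at 1.20 in the middle panel and NCOA1 at 1.40 in the right-hand panel lie beyond the bands.

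C4-2B was compared with LNCaP, the line it descends from, a comparison that shares both libraries with the pairs above. Of the members 4 were higher and 4 lower in C4-2B, where 48.6% of all genes were higher, and for all 8 the counting interval excluded 0, against 70.4%. Of these 2, NCOA1 and NCOA2, were past 2-fold, against 15.2% of 15580 genes. With GRHL2, at 0.62 (0.56 to 0.69), and NCOR1, 4 were past 1.5-fold, against 32.1% of genes. GATA2 was higher in C4-2B by 0.41 (0.35 to 0.46) and FOXA1 by 0.18 (0.14 to 0.22). NCOA3 stood at -0.27 (-0.43 to -0.10), and HOXB13 at -0.05 (-0.09 to -0.01) was the nearest to no change. Between the resistant lines, 1 member was past 2-fold, GATA2 at 1.37 (1.32 to 1.42) higher in 2B-OlapR, against 18.4% of 15539 genes. There, too, 4 members were higher and 4 lower, where 49.4% of genes were higher, and all 8 intervals excluded 0, against 73.4%. Past 1.5-fold were 2 members, GATA2 and NCOA2, against 37.8% of genes, with NCOA2 just inside 2-fold at -0.98 (-1.12 to -0.85).

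Paralogs of the pioneer and lineage factors were far lower. HOXC13 had 11.5 and 16.9 normalized CPM in LNCaP and LN-OlapR, and 22.4 and 17.4 in C4-2B and 2B-OlapR. HOXA13 had 87 counts in C4-2B and 124 in its resistant line but 0 in LNCaP and LN-OlapR, and HOXD13 had 14 and 78 against 0 and 1, so these posterior HOX genes were seen mainly in the C4-2B background. In LNCaP a listed 0 is compatible with a level of up to 0.112 normalized CPM, the value of 3 counts. GATA6 was at 4.05 to 8.21 normalized CPM, GATA3 at 0.63 or below and GATA5 at 1.30 or below. GRHL1 had 8.93 and 7.16 normalized CPM in LNCaP and LN-OlapR, and 14.6 and 15.6 in C4-2B and 2B-OlapR, and GRHL3 had 33, 24, 1 and 2 counts. FOXA2 and FOXA3 were not analyzed here. Of the other genes named as nuclear receptor coactivators, NCOA4 was at 141 to 168 normalized CPM and NCOA5 at 56.4 to 79.5. NCOA6 was at 73.5 to 101 and NCOA7 at 12.8 to 21.2. None of NCOA4 to NCOA7 was past 2-fold in either pair (a count of 0), against 9.46% and 10.1% of all genes.

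Partners of the members were then counted from lists of coregulators, chromatin enzymes, chaperones, ubiquitin ligases, transcription factors and paralogs. In the LN pair 114 such genes other than the members were analyzed, 56 higher and 58 lower in LN-OlapR, with a median of 0.00. Of these 4 were past 2-fold, or 3.51% against 9.46% of all genes. In the 2B pair 63 of 116 were higher and 53 lower, with a median of 0.04, and 5 were past 2-fold, or 4.31% against 10.1%. Over all genes, 49.6% were higher in LN-OlapR and 50.0% in 2B-OlapR.

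Within the NCoR complex, which holds NCOR1, 5 of 7 genes were higher in LN-OlapR and 2 of 7 in 2B-OlapR. Over all genes 49.6% and 50.0% were higher. The medians of the complex were 0.10 and -0.13. TBL1XR1, a WD-repeat subunit, was highest in the LN pair at 0.44 and NCOR1 lowest. CORO2A, another subunit, was at 40.4 normalized CPM in 2B-OlapR against 92.7 in its parent, a log2 ratio of -1.20 (-1.32 to -1.08), and was the lowest in the 2B pair. GPS2 was the highest there at 0.32. HDAC3, the deacetylase of the complex, was at 0.10 (-0.01 to 0.21) in the LN pair and 0.21 (0.11 to 0.31) in the 2B pair.

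Among other corepressors and deacetylases, TLE1, a Groucho-type corepressor, had 18.1 and 57.8 normalized CPM in LNCaP and LN-OlapR, and 45.1 and 98.2 in C4-2B and 2B-OlapR. It was above its parent by 1.68 (1.53 to 1.83) in the LN pair and 1.12 (1.01 to 1.23) in the 2B pair, past 2-fold in each. NRIP1, also called RIP140, a corepressor that nuclear receptors recruit with hormone, had 91.7, 52.2, 19.9 and 9.99 normalized CPM in the same order, and was the lowest of its list in both pairs, at -0.81 (-0.91 to -0.71) and -0.99 (-1.23 to -0.75). With total count scaling the latter was -1.03, past 2-fold. Of the 14 genes of this list, 5 were higher in LN-OlapR and 8 in 2B-OlapR, against 49.6% and 50.0% of all genes. The medians of the list were -0.09 and 0.06.

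The acetyltransferases and methyltransferases that p160 coactivators recruit had medians of 0.03 in the LN pair and 0.10 in the 2B pair over 9 genes. The acetyltransferase EP300 was lowest in the LN pair, at -0.49, and KAT5 highest, at 0.23. The arginine methyltransferase PRMT5 was lowest in the 2B pair, at -0.55, and KAT2B highest, at 0.54. Of 12 Mediator and bromodomain genes, 3 were higher in LN-OlapR and 6 in 2B-OlapR, against 49.6% and 50.0% of all genes. The medians of the list were -0.20 and -0.01. TRIM24, a reader of histone marks, stood at 0.52 in the LN pair and MED24, a Mediator subunit, at -0.43. CDK8, the Mediator kinase, stood at 0.42 in the 2B pair and BRD3, a bromodomain reader, at -0.69.

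Of 14 enhancer chromatin enzymes 6 were higher in each resistant line, where 49.6% and 50.0% of all genes were higher. The medians of the list were -0.02 and -0.07. KDM4B, a histone demethylase, was the highest of that list in both pairs, at 0.69 (0.63 to 0.76) and 0.75 (0.69 to 0.81). It had 109.7 and 178 normalized CPM in LNCaP and LN-OlapR, and 173 and 292 in C4-2B and 2B-OlapR. The lowest were KDM4A at -0.27 in the LN pair and KDM1A at -0.38 in the 2B pair. Of 11 SWI/SNF genes 2 were higher in LN-OlapR and 4 in 2B-OlapR, against 49.6% and 50.0% of all genes. The medians of the list were -0.16 and -0.11. Counting intervals lay above 0 for 1 and below 0 for 8 in the LN pair. In the 2B pair they lay above 0 for 3 and below 0 for 7. Intervals excluded 0 in either direction for 63.0% and 62.3% of all genes. Of the SWI/SNF genes, the ATPase SMARCA2 was highest in the LN pair, at 0.85, with 0.74 in the 2B pair. ARID1B was highest in the 2B pair at 0.75, and the lowest were ARID2 at -0.59 in the LN pair and SMARCD1 at -0.85 in the 2B pair.

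Of 16 chaperones of the receptor, 14 had log2 ratios above 0 in the LN pair and 11 in the 2B pair, where 49.6% and 50.0% of all genes did, with medians of 0.23 and 0.16. Counting intervals lay above 0 for 12 and 11 of them and below 0 for 2 and 4. Over all genes, 63.0% and 62.3% of intervals excluded 0, in either direction. FKBP5, a cochaperone that androgen also induces, had 194 and 441 normalized CPM in LNCaP and LN-OlapR, and 391 and 257 in C4-2B and 2B-OlapR. It was the highest of the list in the LN pair at 1.18 (1.14 to 1.23) and the lowest in the 2B pair at -0.60 (-0.66 to -0.55). DNAJB1 was highest in the 2B pair at 0.73 and DNAJA1 lowest in the LN pair at -0.06. Among 8 ubiquitin ligase genes the medians were 0.00 and 0.01. SPOP, the adaptor that targets NCOA3 for degradation, was at 0.04 (-0.07 to 0.14) in the LN pair and was the highest of the list in the 2B pair at 0.24 (0.13 to 0.36). MDM2 was highest in the LN pair at 0.19 and lowest in the 2B pair at -0.91, and FBXW7 was lowest in the LN pair at -0.21.

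Transcription factors that work beside the members had a median of 0.03 in each pair, over 16 genes in the LN pair and 17 in the 2B pair. RUNX1 rested on 2 counts in LNCaP against 5.14 normalized CPM in LN-OlapR, a log2 ratio of 5.80 (3.99 to 7.60), and stood at -1.53 (-1.95 to -1.12) in the 2B pair. SOX9, an epithelial lineage factor, was at 1.34 normalized CPM in LNCaP and 3.17 in LN-OlapR, a log2 ratio of 1.23 (0.66 to 1.81). CEBPA was lowest in the LN pair at -0.63. JUN was highest in the 2B pair at 0.62, and FOS, its partner in the AP-1 dimer, was lowest, with 3 counts in 2B-OlapR and a log2 ratio of -3.59 (-5.16 to -2.01).

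**Figure D4:**
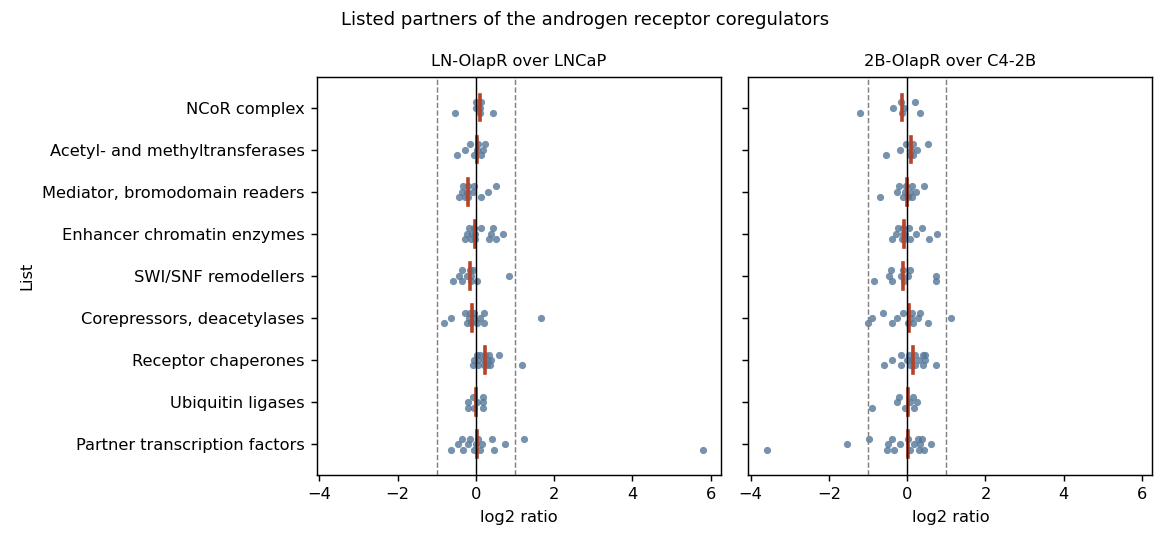
log2 ratios in the LN pair (left) and the 2B pair (right) of the analyzed genes of 9 lists of coregulators and partners, 1 point per gene, with red bars for the median of each list and dashed lines at 2-fold. Receptor chaperones have medians of 0.23 and 0.16, and the point farthest to the right, at 5.80, is RUNX1.

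Of 16 genes of the epithelial programme that GRHL2 maintains, 7 were higher in LN-OlapR and 5 in 2B-OlapR, where 49.6% and 50.0% of all genes were higher, with medians of -0.04 and -0.08. Counting intervals lay above 0 for 3 and below 0 for 8 in the LN pair, and above 0 for 4 and below 0 for 8 in the 2B pair. Intervals that excluded 0 in either direction were found for 63.0% and 62.3% of all genes. CDH1, the gene for E-cadherin, was at 572 and 544 normalized CPM in LNCaP and LN-OlapR, and 473 and 449 in C4-2B and 2B-OlapR. OVOL1, an epithelial repressor, was highest in both pairs at 0.91 (0.61 to 1.22) and 0.72 (0.51 to 0.94), and the lowest were EPCAM at -0.47 in the LN pair and KRT19 at -1.33 in the 2B pair. Of 9 mesenchymal genes 4 were analyzed in each pair. VIM, the gene for vimentin, was lower in both resistant lines, at -5.27 (-5.76 to -4.78) and -2.15 (-2.37 to -1.92). SNAI2 stood at 1.37 in the LN pair and -1.52 in the 2B pair, and FN1 at 1.31 and -0.03.

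Genes within 250 kilobases of each member were examined for shared movement. All 4 genes near GATA2 had log2 ratios above 0 in each pair, as did 49.6% and 50.0% of all genes. None of the 4 was past 2-fold (a count of 0), against 9.46% and 10.1% of all genes. The interval of RAB7A in the 2B pair, -0.03 to 0.08, held 0. GATA2-AS1, which overlaps GATA2 on the other strand, had 1454 and 1841 counts in LNCaP and LN-OlapR, and 1959 and 3301 in C4-2B and 2B-OlapR, with log2 ratios of 0.55 in the LN pair and 0.73 (0.65 to 0.82) in the 2B pair. The library kit keeps the strand, but whether counting used it is not given in the sources used here, so reads of overlapping genes cannot be told apart. TTC6 overlaps FOXA1 and was at -1.11 in the 2B pair, from 941 and 440 counts. SULF2 overlaps NCOA3 in the annotation and had 5 and 113 counts in LNCaP and LN-OlapR, and 6 and 0 in C4-2B and 2B-OlapR.

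HOXB13 and its nearest neighbors differed. PRAC1 and PRAC2, small genes beside HOXB13, were read separately. PRAC1 had 1635 and 836 counts in LNCaP and LN-OlapR, and 339 and 309 in C4-2B and 2B-OlapR. PRAC2 had 461 and 154 counts in LNCaP and LN-OlapR, and 151 and 116 in C4-2B and 2B-OlapR. In normalized CPM, PRAC1 had 60.8 and 35.8 in LNCaP and LN-OlapR, and 16.6 and 14.9 in C4-2B and 2B-OlapR. PRAC2 had 17.1, 6.60, 7.38 and 5.60 in the same order. On that scale both were highest in LNCaP, while HOXB13 was highest in 2B-OlapR. PRAC1 was chosen after its values were seen. PRAC2 stood at -1.37 in the LN pair, where HOXB13 stood at -0.14. HOXB9, 98.4 kilobases away, was higher in LN-OlapR by 2.35, from 49 and 219 counts, and TTLL6 was at -1.40 in the 2B pair. The noncoding gene ENSG00000242407 stood at 1.14 in the LN pair, from 29 and 56 counts. Near GRHL2, NCALD had 62 counts in 2B-OlapR against 13 in its parent, a log2 ratio of 2.19.

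The genes with the pattern most like a member were sought among 9884 others for the 4 members that span at least 2-fold, by the root mean square difference of centered log2 levels over the 4 libraries. For GATA2 they were ARHGAP6 (0.029), FAM102A (0.033) and LAMA5-AS1 (0.050). For NCOA1 they were PITPNM1 (0.031), STXBP5 (0.040) and MNX1-AS1 (0.071), and for NCOA2 they were BICD1 (0.026), TNFRSF10D (0.037) and ABHD4 (0.049). For NCOR1 they included SH3PXD2B (0.020) and the pseudogene ITGB1P1 (0.023), whose reads can be shared with its parent gene. With 4 libraries close patterns are common, and 81 genes lay within 0.1 of NCOR1, 21 within 0.1 of NCOA2, 9 of GATA2 and 7 of NCOA1.

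Promoter sequence from RefSeq (GRCh38.p14), 250 bases before to 50 after the start, was matched by symbol for FOXA1, GATA2, NCOA1, NCOA3 and NCOR1. These 5 windows were rich in G and C, from 66.7% to 85.7%, where the median of 27305 promoters was 58.3%. Both strands were searched for short motifs of the factors described here. The forkhead letters TGTTTAC, the GATA letters AGATAA, the Grainyhead-like letters AACNGGTT and the HOXB13 letters CCAATAAA were in 0 of the 5 windows, and in 3.41%, 10.5%, 1.73% and 0.992% of all promoters. The steroid receptor half-site AGAACA was in 1 of the 5, that of NCOA1, and in 14.9% of all promoters. The half-site begins 23 bases after the RefSeq start and lies upstream of the NCOA1 position given above, which is from GENCODE. That stretch is shown because it held the only match, with the half-site in capitals (chr2:24491269-24491290, plus strand).
NCOA1: cgaggaggAGAACAtggcggcc
The match is a description of these letters and not a binding site.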

How the data were processed

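Stranded mRNA libraries were made from total RNA with 1 library per cell line. The authors deposited estimated counts per gene, not scaled between libraries. The submitters' processing notes name STAR, Partek, GRCh38 and hg38, while versions, annotation and counting model are not given in the sources used here. Of the values 46.2% are not whole, and genes with a sum under 10.0 over the libraries are absent from the table. Such filtering upstream removes genes at or near 0. The design assumed counts, and the estimated counts were rounded.

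Scaling used TMM in edgeR 4.0.16 (R 4.3.3), and further steps used Python 3.11.15 with numpy, pandas and SciPy. Log2 ratios carried a pseudocount of 0.5, with normal intervals from the 2 counts, and levels have exact Poisson intervals. A gene was analyzed where its 2 libraries averaged 1 normalized CPM or more. As there is 1 library per line, no model was fitted and no p-value computed. The calculation was checked on simulated counts that held counting error alone. That check cannot show how much cultures of a line vary. Lengths and positions are from GENCODE release 29, whose gene versions differ from those in the table.

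The genes and lists were chosen with earlier results of these data known. Some results are not reported here. Apart from these, the text names all members and their paralogs, the highest and lowest gene of each list other than cell type markers in the pairs, coregulator, partner or neighboring genes past 2-fold in a pair, and up to 3 genes most like a member. Of androgen-induced genes past 2-fold only some are named. These, CDH1, HDAC3, RAB7A and PRAC1 were named after their values were seen. Member values, counts of members and listed partners past a fold, and TMPRSS2 and NRIP1 in the 2B pair were recalculated. These used total count scaling, upper quartile scaling and size factors from DESeq2 1.42.0, and for ratios and counts a pseudocount of 2. Counts past 2-fold were also made with minimum means of 0.1 and 10 and a fold of 1.5. Ratios within a library were recalculated with the length of the longest transcript and with unrounded values. Other values, such as list medians and those of neighboring genes, were not recalculated.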

Additional observations from a re-analysis of the deposited data

Results flagged for a closer look

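HOXB13 and NCOA1 went in opposite directions in the LN pair and the 2B pair, with counting intervals that excluded 0 in each. The LN ratio minus the 2B ratio was -0.46 for HOXB13 and 0.96 for NCOA1. The difference was not tested against replicates, since each line has 1 library. Opposite directions with both intervals excluding 0 were found for 16.3% of 14602 genes, so they are not uncommon in these libraries.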

How the results depend on the processing

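No member changed direction in any comparison under total count, DESeq2 or upper quartile scaling or with a pseudocount of 2. Scaling by total counts shifted LN pair ratios beyond counting error for FOXA1 to -0.17, HOXB13 to -0.23, GATA2 to 0.16, GRHL2 to 0.50 and NCOR1 to -0.63, and the HOXB13 ratio of the 2B pair to 0.28. Members past 1.5-fold in the LN pair were 2 with total counts, 1 with DESeq2 and 1 with upper quartile factors, against 0. Differences between the pairs stayed within counting error in all 32 recalculations. With a fold of 1.5, members counted were 4 in C4-2B against LNCaP and 2 between resistant lines. Listed partners past 1.5-fold were 12 of 114 in the LN pair and 18 of 116 in the 2B pair, against 21.4% and 24.2% of all genes. They were 31 of 115 in C4-2B against LNCaP and 29 of 115 between resistant lines, against 32.1% and 37.8%. With a minimum mean of 0.1, listed partners past 2-fold were 8 in the LN pair and 10 in the 2B pair. With a minimum of 10 they were 2 in the LN pair, 2 in the 2B pair and 7 in C4-2B against LNCaP, as fewer genes were counted. The share of all genes past 2-fold was not computed at either minimum. With the longest transcript as length, FOXA1 to HOXB13 turned to 0.10 in LNCaP, 0.15 in LN-OlapR and 0.33 in C4-2B. No replicate block was fitted, since the labels give no replicate numbers, and no replicate could be left out. A joint fit of background and resistance over the 4 libraries was not run. Depth limits NCOA3 most, at 329 counts in 2B-OlapR.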

Other observations

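As a list, genes that androgen induces, which the members help to control, had medians of opposite sign in the pairs. That pattern was seen in these libraries before this list was written. Of 28 such genes 18 were higher in LN-OlapR, with a median log2 ratio of 0.44, and 9 were higher in 2B-OlapR, with a median of -0.26, where 49.6% and 50.0% of all genes were higher. In the LN pair 10 of them passed 2-fold upward and 1 downward, against 3 upward and 4 downward in the 2B pair, where 9.46% and 10.1% of all genes were past 2-fold in either direction. KLK3 was the highest of the list in the LN pair, at 5.66, a value that rests on its low level in LNCaP given above. KLK4, a related protease gene, was the highest of the list in the 2B pair, at 1.71. It had 448 normalized CPM in 2B-OlapR against 137 in its parent. TARP was the lowest in both pairs, at -2.01 and -3.24. TMPRSS2, a membrane protease gene, was past 2-fold higher in both, at 1.28 (1.23 to 1.33) and 1.01 (0.95 to 1.08), although total count scaling took the latter to 0.97, inside 2-fold. TRPM8, a cation channel gene, was past 2-fold higher in both, at 1.79 and 1.36. SLC45A3, the gene for prostein, had 380 and 485 normalized CPM in LNCaP and LN-OlapR, and 592 and 74.7 in C4-2B and 2B-OlapR.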
